A study of Homo sapiens with 18 samples.

Results

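MEGF10 and 9 other genes through which cells recognise and take up dead cells and debris were followed by RNA sequencing of BE(2)-m17 cells, a human neuroblastoma line. The 10 genes were found by their symbols among the 57905 Ensembl genes of the count tables. They were the receptors MEGF10, MEGF11 and PEAR1, the adaptor GULP1, the endocytic receptor LRP1, the receptor kinases AXL, TYRO3 and MERTK, and the secreted ligands GAS6 and MFGE8. MEGF10 was chosen because its reads were lost in the ABCC1-overexpressing cells of the first experiment, so its values there are a description without a test. The other 9 genes were chosen by name, with earlier results of these data known. All 10 genes passed the filter on low counts in each of the 3 experiments.

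Every line carried an amyloid precursor protein (APP) transgene on the hygromycin-selected vector pSBbi-Hyg-APP. The empty vector control cells also carried pSBbi-Pur, and the ABCC1-overexpressing cells carried pSBbi-Pur-ABCC1(WT), a codon-optimized cDNA of the drug and peptide exporter ABCC1. These vectors are transposons that integrate into the genome, the lines were selected with puromycin and hygromycin, and the sources used here do not say whether a line was a pool or a clone. The experiments, labelled RNA1, RNA2 and RNA3, each held 3 libraries of empty vector control cells and 3 of ABCC1-overexpressing cells, 18 in all, from 14000000 cells per well lysed on day 4. The study's results name cryopreserved and newly transfected cells for the repeat experiments, while the labels give only their numbers. The labels of RNA1 name both a TruSeq kit and the SMARTer kit of RNA2 and RNA3, whereas the study's methods give only TruSeq and another instrument for the first experiment. Experiment, kit, instrument and cells cannot be told apart. The comparison asked which transcripts differed when ABCC1 was overexpressed.

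Libraries held 8866994 to 57937653 assigned read pairs. The transgene matched the labels, with 51035 to 594404 read pairs on the exogenous ABCC1 sequence in ABCC1-overexpressing libraries and 0 to 15 in the controls. The noradrenergic neuroblastoma markers DBH, TH and MYCN lay above 3 times the read background in every group. That background was taken from 345 olfactory receptor genes, which belong to sensory neurons of the nose, as reads per kilobase of exon. It was 0.0035 CPM per kb in the RNA1 controls, 0.593 ± 0.091 (SD, n = 3) in the RNA2 controls and 1.62 ± 0.095 in the RNA3 controls.

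MEGF10 is the mammalian relative of the engulfment receptors CED-1 of worms and Draper of flies, and astrocytes and other phagocytes use it to clear synapses and apoptotic cells. MEGF11 and PEAR1 share its row of EGF-like repeats, and GULP1, the relative of worm CED-6, is an adaptor that binds the cytoplasmic tails of such receptors and of LRP1. AXL, TYRO3 and MERTK form the TAM family of receptor kinases, which sense phosphatidylserine on dying cells through GAS6, while MFGE8 links phosphatidylserine to integrins. LRP1 also takes up apolipoprotein E and amyloid beta.

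The stretches before the start sites of MEGF10 and its closest relative MEGF11 are shown because these related genes moved apart in the first experiment. RefSeq held windows for all 10 genes on GRCh38.p14. Each sequence below is the 250 bases before the start, written 5′ to 3′ on the gene's strand with every CG in capitals, at chr5:127290546-127290795 (plus strand) for MEGF10 and chr15:66253751-66254000 (minus strand) for MEGF11.
MEGF10: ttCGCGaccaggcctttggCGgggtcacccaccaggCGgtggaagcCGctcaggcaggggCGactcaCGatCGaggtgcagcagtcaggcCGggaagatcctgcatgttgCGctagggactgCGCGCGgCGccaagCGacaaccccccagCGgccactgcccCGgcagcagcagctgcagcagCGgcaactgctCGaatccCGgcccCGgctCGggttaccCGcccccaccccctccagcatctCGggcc
MEGF11: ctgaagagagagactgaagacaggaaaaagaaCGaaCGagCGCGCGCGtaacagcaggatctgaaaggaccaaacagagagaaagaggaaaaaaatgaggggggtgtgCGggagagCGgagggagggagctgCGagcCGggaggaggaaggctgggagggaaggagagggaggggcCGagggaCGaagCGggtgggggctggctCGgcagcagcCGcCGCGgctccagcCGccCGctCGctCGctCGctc
The MEGF10 window held 24 CG and the MEGF11 window 22, against a median of 11 over 35114 such windows. Fewer CG were counted in 76.3% of all windows than in that of MEGF10 and in 72.0% than in that of MEGF11. The letters TATAAA, searched on both strands, occurred in 10.72% of all windows and in none of those of the 10 genes.

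In the first experiment MEGF10 went from the highest level per kilobase of the 10 genes to a level near zero. The gene (ENSG00000145794, GRCh37 chromosome 5, 126626523 to 126801429, plus strand) is counted over 9007 exonic bases. The empty vector control libraries held 4356, 2889 and 3151 MEGF10 counts, and the ABCC1-overexpressing libraries held 2, 0 and 3. The 2 lines did not overlap, and all 3 ABCC1-overexpressing libraries lay at or under a floor of 3 counts. Set against that floor in each library, MEGF10 was at least 1548-fold lower in ABCC1-overexpressing cells. The controls averaged 11.3 ± 0.388 CPM per kb (SD, n = 3), which was 3235 times the background, while the ABCC1-overexpressing libraries ranged from 0 to 2.40 times the background. In bulk RNA, fewer cells with MEGF10 and less MEGF10 per cell cannot be told apart.

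The choice of MEGF10 had not used the repeat experiments. Its reads in RNA2 and RNA3 lay near the background, so the repeats could not test the loss seen in RNA1. In RNA2 the controls held 165, 159 and 147 MEGF10 counts and the ABCC1-overexpressing libraries 42, 70 and 145. After scaling these were 7.30, 5.32 and 7.08 CPM against 1.6, 3.21 and 4.68 CPM. Every ABCC1-overexpressing library of RNA2 lay below every control, but the log2FC of -1.05 (SE 0.35) did not pass the test (edgeR quasi-likelihood, adjusted P = 0.104). In RNA3 the controls held 142, 153 and 156 MEGF10 counts and the ABCC1-overexpressing libraries 147, 96 and 179. These groups overlapped, and the log2FC was -0.27 (SE 0.20, adjusted P = 0.556). Over both repeats the MEGF10 log2FC of -0.61 was called (95% CI -1.02 to -0.21, edgeR adjusted P = 0.0415). That call was lost without any of 9 of the 12 libraries (adjusted P 0.0547 to 0.147), namely every RNA3 control, replicates 1 and 3 of the RNA2 controls, and replicates 1 and 2 of the ABCC1-overexpressing cells in both RNA2 and RNA3.

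The MEGF10 reads of RNA2 and RNA3 were hardly above the background of their own library. MEGF10 lay at 1.18 to 1.32 times the background in the RNA2 controls, and at 1.03 to 1.2 times in the RNA2 ABCC1-overexpressing libraries. It lay at 0.868 to 1.07 times in the RNA3 controls and 0.763 to 1.42 times in the RNA3 ABCC1-overexpressing libraries. MEGF10 was the lowest of the 10 genes per kilobase in all 4 groups of the repeats, and 105 to 138 of the 345 olfactory receptor genes read as high or higher. The background itself was lower in ABCC1-overexpressing than in control cells, with a log2 ratio of -0.94 in RNA2 and -0.35 in RNA3. With each library's background as a covariate, an alternative added after seeing the data, the common MEGF10 log2FC was -0.05 (SE 0.23, edgeR adjusted P = 0.966).

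**Figure D1:**
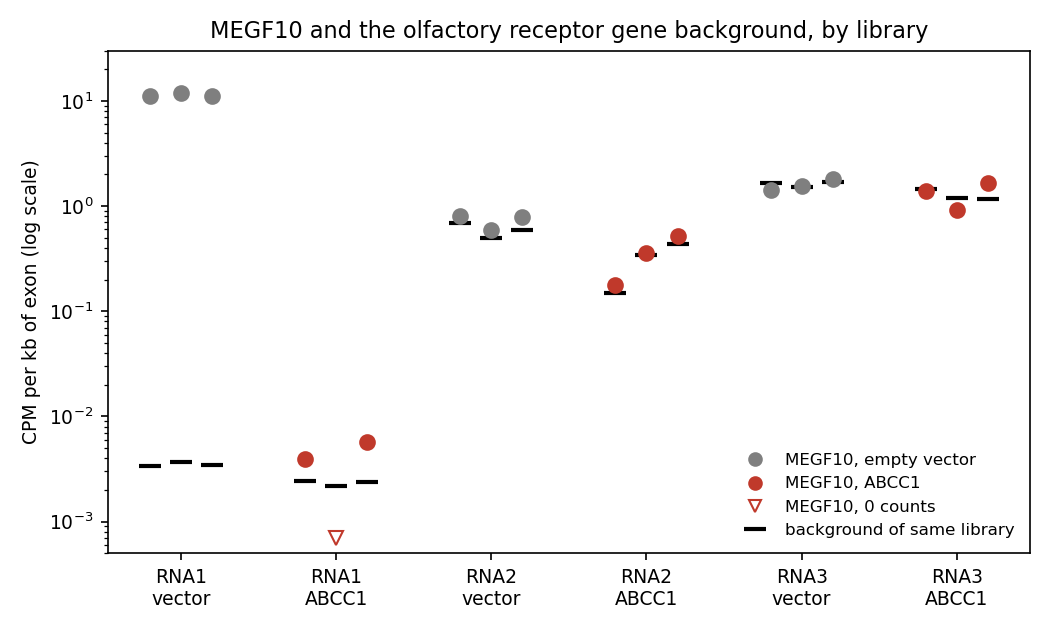
MEGF10 level per kilobase of exon in each of the 18 libraries on a log scale (circles, or a triangle for 0 counts) beside the olfactory receptor background of the same library (black bars). The RNA1 controls sit near 11.3 CPM per kb, the RNA1 ABCC1-overexpressing libraries sit near a background of 0.0023, and in RNA2 and RNA3 the circles follow the bars.

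The genes beside MEGF10 did not share its loss in the first experiment, apart from a transcript that begins 85 bases beyond its end. On one side the closest tested genes were C5orf63, MARCHF3 and the nuclear lamina gene LMNB1, 217339 to 453811 bases away, with first-experiment log2FC of 0.13, 0.14 and -0.24. On the other side HNRNPKP1 and PRRC1, 45727 and 51872 bases away, had a log2FC of -0.26 and 0.09. ENSG00000249577, which lies 85 bases past the end of MEGF10 on the same strand, held 55, 27 and 44 counts in the controls and 0, 0 and 0 in the ABCC1-overexpressing libraries. Set against the floor of 3 counts per library, ENSG00000249577 was at least 18.5-fold lower. These 6 neighbours are described without a test, since they were picked for MEGF10.

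The pattern most like that of MEGF10 was sought among 16199 genes, as Pearson's r over the 18 libraries after removing the control mean of each experiment. EYA2, a transcriptional coactivator and phosphatase, had an r of 0.996 and held 202, 121 and 142 counts in the RNA1 controls against 0, 0 and 1. ACMSD, an enzyme of tryptophan breakdown, had an r of 0.993 and held 1033, 721 and 825 counts against 3, 1 and 2. The potassium channel subunit gene KCNIP1 had an r of 0.989 and held 135, 81 and 87 counts against 0, 0 and 0. KIAA2012 (r = 0.989) held 270, 195 and 223 counts against 8, 3 and 3, and KCNIP4 (r = 0.988) held 1268, 875 and 892 against 193, 119 and 243. The RNA1 groups did not overlap for any of the 5, as their choice by likeness to MEGF10 made likely. EYA2 was at least 68.7-fold lower, ACMSD at least 386-fold and KCNIP1 at least 44.7-fold, against the same floor, whereas KIAA2012 was 71.4-fold and KCNIP4 7.93-fold lower. The correlations rest mainly on 6 libraries of 1 experiment and carry no test.

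**Figure D2:**
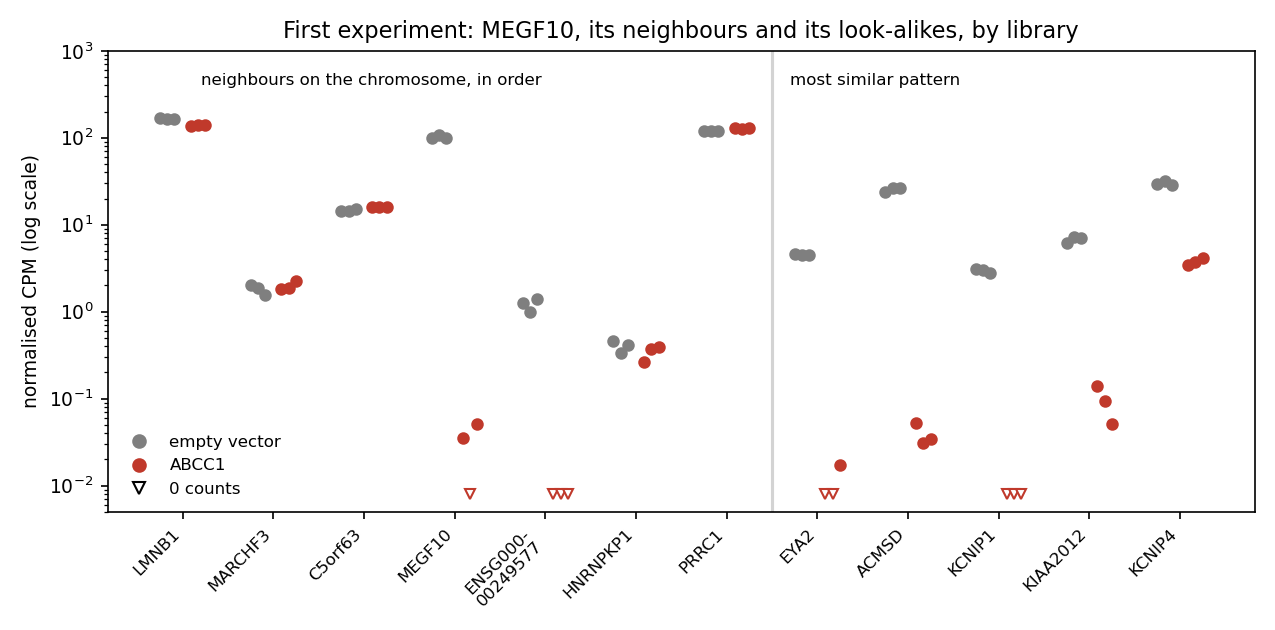
Normalised CPM on a log scale in the 6 libraries of the first experiment for MEGF10 and its 6 tested neighbours in chromosome order (left) and for the 5 genes with the most similar pattern (right); grey, empty vector; red, ABCC1; triangles, 0 counts. MEGF10 and ENSG00000249577 drop while the neighbours beyond them stay level to within a log2FC of -0.26 to 0.14.

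Among the other 9 genes in the first experiment, 4 rose and 2 fell (edgeR, adjusted P of at most 0.05), where 37.6% of the 16995 tested features were called, 17.9% higher and 19.7% lower. The libraries of RNA1 varied little, with a common biological coefficient of variation of 5.67%, against 35.3% in RNA2 and 19.7% in RNA3. MEGF11, LRP1, TYRO3 and MERTK rose, GULP1 and GAS6 fell, and PEAR1, AXL and MFGE8 did not pass. DESeq2 called 5 of these 6, without MERTK (DESeq2 adjusted P = 0.128), and 23.4% of all features. Replicates 1 and 2 of the RNA1 ABCC1-overexpressing cells differed by a chi-square of 1.49 per degree of freedom over their counts, and replicate 3 from them by 21.5 and 16.1, against 2.12 to 4.44 among the controls. Replicate 3 was the highest of its group for MEGF11, LRP1 and GAS6. Without it the same 6 genes were called, with a log2FC of 0.32 for MEGF11, 0.43 for LRP1 and -0.35 for GAS6 in place of 0.41, 0.50 and -0.26. The median log2FC of the 9 was 0.14, beside 0.01 over all features tested.

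MEGF11 was the one relative of MEGF10 that was higher in ABCC1-overexpressing cells in every experiment. Its RNA1 controls held 31.1, 32.7 and 29.5 CPM and the ABCC1-overexpressing libraries 38.8, 38.7 and 46.1 CPM. In RNA2 these were 23.6, 23.8 and 25.0 CPM against 25.9, 30.8 and 33.7 CPM, and in RNA3 46.8, 47.4 and 47.5 CPM against 58.6, 62.5 and 59.7 CPM. The groups did not overlap in any of the 3 experiments. MEGF11 rose by a log2FC of 0.41 in RNA1 (SE 0.07, edgeR adjusted P = 0.00154). The log2FC of 0.32 in RNA2 (adjusted P = 0.231) and 0.35 in RNA3 (adjusted P = 0.265) did not pass alone. Over both repeats MEGF11 rose by 0.38 (95% CI 0.16 to 0.61, edgeR adjusted P = 0.0208). This call was lost without any of 4 libraries, replicates 1 and 3 of the RNA3 controls and replicates 2 and 3 of its ABCC1-overexpressing cells (adjusted P 0.0546 to 0.0733). Since the background was lower in ABCC1-overexpressing cells while MEGF11 was higher, the groups also stood apart after subtracting it, at 1.98 ± 0.130 against 2.91 ± 0.275 CPM per kb in RNA2 and 3.43 ± 0.109 against 5.17 ± 0.342 in RNA3 (SD, n = 3). With the background as a covariate the MEGF11 log2FC was 0.49 (adjusted P = 0.11).

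PEAR1, a receptor of platelets and endothelium, and the adaptor GULP1 gave no common direction. PEAR1 held 19.7, 20.9 and 17.6 CPM in the RNA1 controls and 20, 21.4 and 22.7 CPM in the ABCC1-overexpressing libraries, an overlap, with a log2FC of 0.14 (edgeR adjusted P = 0.169). Its log2FC was -0.41 in RNA2 (adjusted P = 0.244) and -0.11 in RNA3 (adjusted P = 0.8). GULP1 was second to MEGF10 per kilobase in the RNA1 controls, at 8 ± 0.2 CPM per kb, and the highest of the 10 genes in RNA2. In RNA1 its controls held 93.9, 95 and 98.5 CPM and its ABCC1-overexpressing libraries 74.8, 76.7 and 77.9 CPM. These groups did not overlap, and GULP1 fell by 0.33 on the log2 scale (95% CI -0.42 to -0.23, edgeR adjusted P = 0.000157), a call that was lost when the spread was shared across all 18 libraries (log2FC -0.22, adjusted P = 0.773). In RNA2 the groups overlapped at 77.7, 111 and 132 CPM against 103, 110 and 113 CPM, and the common log2FC of the repeats was -0.03 (95% CI -0.29 to 0.23).

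LRP1 rose in RNA1, and its groups stood apart in RNA2 as well, though not in RNA3. In RNA1 the controls held 40.2, 49.8 and 41.8 CPM and the ABCC1-overexpressing libraries 59.0, 58.8 and 68.1 CPM, without overlap, and LRP1 rose by a log2FC of 0.50 (SE 0.09, edgeR adjusted P = 0.00134). RNA2 held 59.0, 54.4 and 43.6 CPM in the controls against 87.2, 73.2 and 60.9 CPM, also without overlap, with a log2FC of 0.49 that did not pass (adjusted P = 0.118) and was 0.21 with the background as a covariate (adjusted P = 0.974). RNA3 held 112, 99.1 and 108 CPM against 103, 96.7 and 106 CPM, where the groups overlapped and the log2FC was -0.07 (adjusted P = 0.9). The difference between the third and second experiments was -0.54 (95% CI -1.03 to -0.04, adjusted P = 0.756) and was not called. LRP1 exons overlap those of STAT6 by 59 bases and of the antisense gene LRP1-AS by 112, and without strand in the counting such reads cannot be told apart. In RNA1, 8 fibroblast and mesenchyme markers summed to 34.0 to 35.0 CPM per kb in controls and 48.2 to 49.0 with ABCC1. LUM and DCN made up most of this sum. LUM averaged 27.6 CPM per kb in the controls and 35.9 with ABCC1, and DCN 4.76 and 9.45. Of 6 tested markers 5 were called higher, while COL3A1 was not called and averaged 0.126 in the controls and 0.0900 with ABCC1. POSTN was at 0 in all controls and COL1A2 at 0 in all ABCC1-overexpressing libraries. The part of these markers in the LRP1 difference was not tested.

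The TAM kinases did not move together: TYRO3 rose in RNA1, AXL fell over the repeats, and MERTK did both. TYRO3 held 19, 18 and 18.8 CPM in the RNA1 controls and 27.7, 28.2 and 27.5 CPM in the ABCC1-overexpressing libraries. The groups stood clearly apart, and TYRO3 rose by 0.58 (SE 0.05, edgeR adjusted P = 1.83e-05), the largest rise of the 10 genes in that experiment. The RNA2 groups did not overlap either, at 18.8, 20.6 and 19.6 against 24.4, 22.1 and 21.8 CPM. Nor did those of RNA3, at 27.0, 33.9 and 29.4 against 34.3, 38.9 and 35.8 CPM. The common TYRO3 log2FC of 0.29 (95% CI 0.06 to 0.51) did not pass over all features (edgeR adjusted P = 0.0908), and passed without replicate 2 of the RNA3 controls (adjusted P = 0.0494). With the background as a covariate it was 0.13 (adjusted P = 0.82).

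AXL was the weakest of the 10 genes in the RNA1 controls, with 15, 24 and 22 counts there and 30, 26 and 28 in the deeper ABCC1-overexpressing libraries. Its RNA1 log2FC of -0.06 (95% CI -0.81 to 0.69) leaves a wide range, and the groups overlapped. In RNA2 AXL held 8.71, 6.09 and 4.86 CPM in the controls and 3.29, 3.02 and 3.32 CPM in the ABCC1-overexpressing libraries. In RNA3 it held 19.5, 14.1 and 19.0 CPM against 10.8, 12.8 and 11.3 CPM. Controls lay above ABCC1-overexpressing libraries in both repeats without overlap. Less background the groups overlapped in both, at 0.348 to 1.01 against 0.211 to 0.489 CPM per kb in RNA2 and 1.22 to 2.13 against 0.63 to 1.28 in RNA3. AXL fell by 0.76 on the log2 scale over both repeats (95% CI -1.10 to -0.41, edgeR adjusted P = 0.00338), and this call was kept when each of the 12 libraries was left out in turn. Neither RNA2 (log2FC -1.03, adjusted P = 0.0813) nor RNA3 (-0.59, adjusted P = 0.0663) passed alone, although RNA3 passed without replicate 2 of its controls (adjusted P = 0.0125). AXL stood at 1.43 to 4.29 times the background in the repeat libraries. With the background as a covariate its log2FC was -0.66 (adjusted P = 0.216). AXL exons overlap those of ENSG00000269652 by 67 bases.

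MERTK rose in the first experiment and fell over the repeats. In RNA1 it held 6.41, 5.88 and 5.93 CPM in the controls and 7.34, 7.78 and 6.88 CPM in the ABCC1-overexpressing libraries. In RNA2 the values were 7.69, 7.39 and 7.66 CPM against 3.63, 5.36 and 5.45 CPM, and in RNA3 16.8, 18.6 and 18.4 CPM against 13.9, 14.6 and 12.5 CPM. ABCC1-overexpressing libraries were all above the controls in RNA1 and all below them in both repeats. The MERTK log2FC was 0.26 in RNA1 (SE 0.09, edgeR adjusted P = 0.0354) and -0.48 over the repeats (95% CI -0.78 to -0.17, edgeR adjusted P = 0.0342). The difference of 0.84 between the first experiment and the repeats (95% CI 0.40 to 1.29) passed the test in the 18-library fit (edgeR adjusted P = 0.0361), in which the 330 olfactory receptor genes tested had a median difference of 0.62. The RNA1 call was lost without any of 4 of its 6 libraries (adjusted P 0.0838 to 0.119), replicates 2 and 3 of the controls and 1 and 2 of the ABCC1-overexpressing cells. The common call was lost without any of 10 of 12 (adjusted P 0.0568 to 0.109), all but replicates 2 and 3 of the RNA2 ABCC1-overexpressing cells, and the difference without any of 10 of 18 (adjusted P 0.0584 to 0.185), namely all 6 of RNA1, replicates 2 and 3 of the RNA3 controls and replicates 1 and 3 of its ABCC1-overexpressing cells. Less background, MERTK averaged 1.19 ± 0.0573 against 0.821 ± 0.107 CPM per kb in RNA2 and 2.60 ± 0.282 against 1.94 ± 0.249 in RNA3 (SD, n = 3), and with the background as a covariate its log2FC was -0.27 (adjusted P = 0.677).

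**Figure D3:**
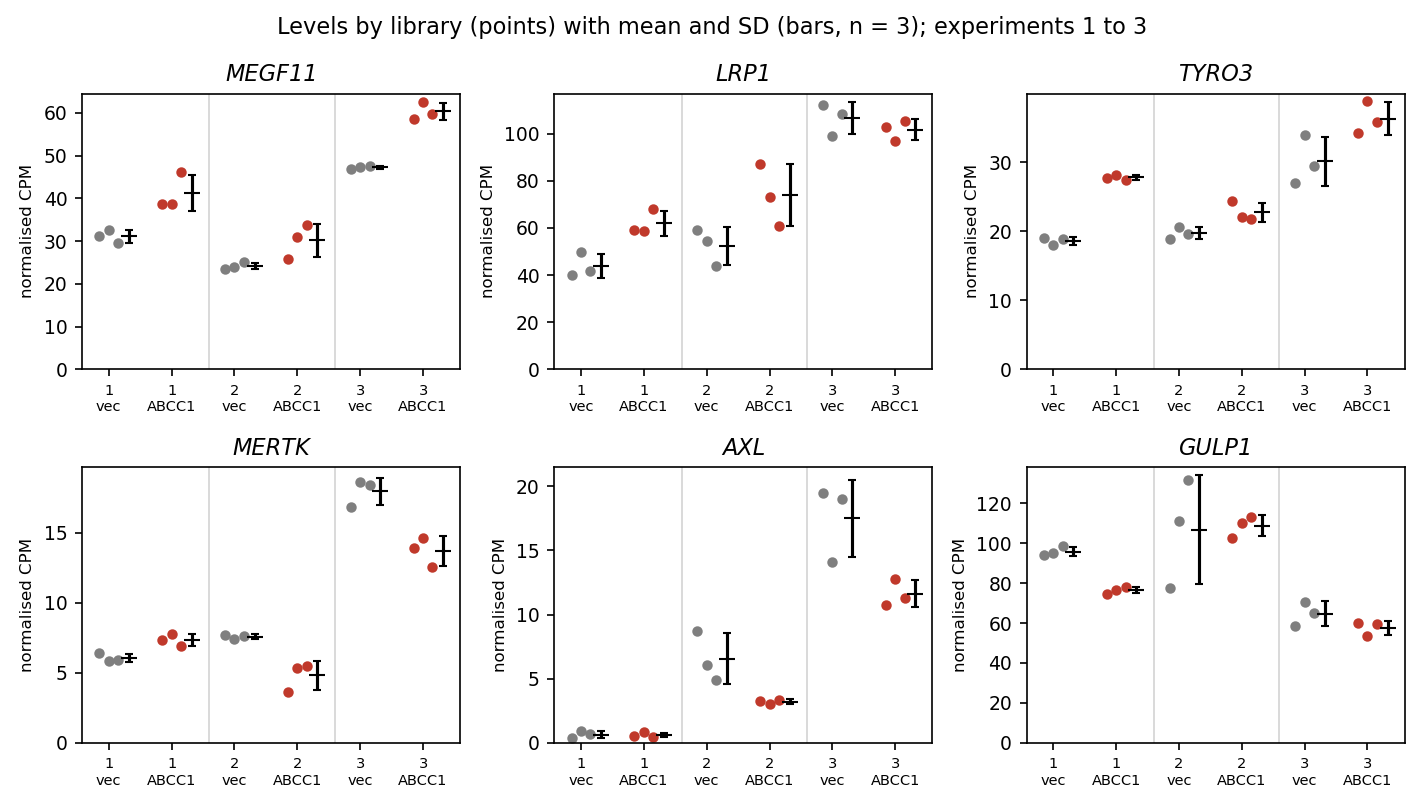
Normalised CPM of 6 engulfment genes in every library (points; grey, empty vector; red, ABCC1) with the mean and SD of each group of 3 (black), by experiment; values are comparable within an experiment. MEGF11 and TYRO3 are higher with ABCC1 in all 3 experiments, AXL is lower in experiments 2 and 3, and MERTK is higher in experiment 1 and lower in 2 and 3.

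The ligands moved little. GAS6, which bridges phosphatidylserine to the TAM kinases, held 19.1, 19.5 and 17 CPM in the RNA1 controls and 14.5, 14.5 and 17.2 CPM in the ABCC1-overexpressing libraries. The lowest control lay just below the highest ABCC1-overexpressing library, and GAS6 fell by 0.26 on the log2 scale (95% CI -0.45 to -0.07, edgeR adjusted P = 0.0336). This call was lost without any of 4 libraries, replicates 1 and 2 of each line (adjusted P 0.0924 to 0.119), and 298 bases of its exons overlap the antisense gene GAS6-AS1. The common GAS6 log2FC of the repeats was -0.04 (95% CI -0.28 to 0.19). MFGE8 held 24.3, 24.9 and 22.4 CPM in the RNA1 controls against 26.3, 24.4 and 24.9 CPM, with overlap. Its log2FC was 0.08 in RNA1 (adjusted P = 0.338) and -0.12 over the repeats (95% CI -0.39 to 0.15).

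None of the 10 genes was called in RNA2 alone or in RNA3 alone by edgeR, where 1.7% of all tested features (1.25% higher, 0.458% lower) and 2.8% (2.03% higher, 0.767% lower) were. At an unadjusted P under 0.05 there were 5 in RNA2 (MEGF10, MEGF11, LRP1, AXL and MERTK), beside 21.2% of all features, and 3 in RNA3 (MEGF11, AXL and MERTK), beside 15.2%. DESeq2 called 2 in RNA2 (LRP1 and AXL), where it called 18.6% of all features, and 1 in RNA3 (MEGF11), where it called 14.2%. The RNA3 calls among all features split 741 higher to 280 lower with TMM, and 966 to 199 with DESeq2's size factors (RLE). Taking both repeats together, 1 of the 10 was called higher (MEGF11) and 3 lower (MEGF10, AXL and MERTK). Of the 41448 tested features 10.9% were called, 7.17% higher and 3.74% lower. The MEGF10 reads counted here lay near the background, and the 300 olfactory receptor genes tested in the same fit had a median log2FC of -0.64, beside -0.61 for MEGF10. With the background as a covariate 0 of the 10 were called. DESeq2 also called 4 over both repeats, with LRP1, TYRO3 and MEGF11 higher and AXL lower, and neither MEGF10 (DESeq2 adjusted P = 0.0605) nor MERTK (DESeq2 adjusted P = 0.055), where it called 25.4% of all features, 20.3% higher and 5.1% lower. With DESeq2's size factors (RLE) in place of TMM, 2 of the 4 calls remained, MEGF11 and AXL, where 12.2% of all features were called, the median of all features in the common effect moved from -0.19 to -0.08, and the calls among all features split 3952 higher to 1111 lower in place of 2971 to 1552. The median log2FC of the 10 genes over the repeats was -0.08 with TMM. No gene of the 10 was called for the difference between the third and second experiments (edgeR; 1 at an unadjusted P under 0.05, LRP1, beside 6.35% of features, and 0 by DESeq2), where 0.00724% of features were called by either tool (with edgeR 0.00483% with a higher and 0.00241% with a lower difference). Between the first experiment and the repeats MERTK alone of the 9 genes other than MEGF10 was called, where 1.22% of features were (0.571% with a higher and 0.645% with a lower difference), and DESeq2 called MERTK and TYRO3, beside 2.83% of features.

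**Figure D4:**
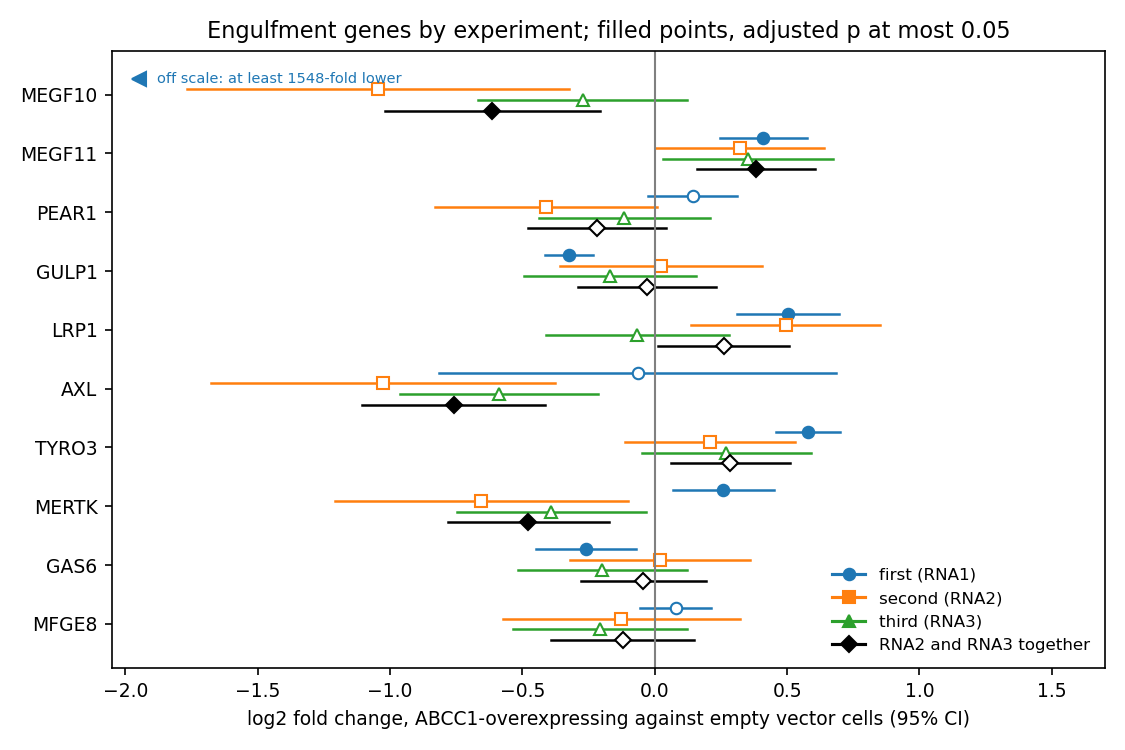
The log2FC of each engulfment gene (ABCC1-overexpressing against empty vector control cells) with its 95% confidence interval in each experiment and over RNA2 and RNA3 together; filled points have an adjusted P of at most 0.05. MEGF10 in RNA1 is off the scale, at least 1548-fold lower, and MERTK shows filled points on both sides of 0.

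Per kilobase of exon the order of the 10 genes changed between the first experiment and the repeats. In the RNA1 controls MEGF10 stood first, followed by GULP1 at 8 ± 0.2 and MFGE8 at 5.03 ± 0.270 CPM per kb, each apart from the next beyond its SD. PEAR1 (3.5 ± 0.304), MEGF11 (3.32 ± 0.17), GAS6 (3.02 ± 0.216) and TYRO3 (2.78 ± 0.0834) came next, and the mean ± SD of each overlapped that of the one after it. LRP1 (2.11 ± 0.248), MERTK (1.43 ± 0.0695) and AXL (0.124 ± 0.0529) closed the list, each apart from the next. In the RNA2 controls GULP1 led at 8.92 ± 2.28, GAS6 followed at 4.02 ± 0.693 and MEGF10 came last at 0.729 ± 0.120 CPM per kb. In the RNA3 controls 8 of the 10 genes lay between 4.22 and 5.4 CPM per kb, only AXL (3.40 ± 0.580) and MEGF10 (1.59 ± 0.191) fell below them, and the background there was 1.62. Over the background, the genes other than MEGF10 ranged from 35.5 (AXL) to 2285 times (GULP1) in the RNA1 controls, from 2.14 to 15.0 times in the RNA2 controls and from 2.10 to 3.34 times in the RNA3 controls.

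**Figure D5:**
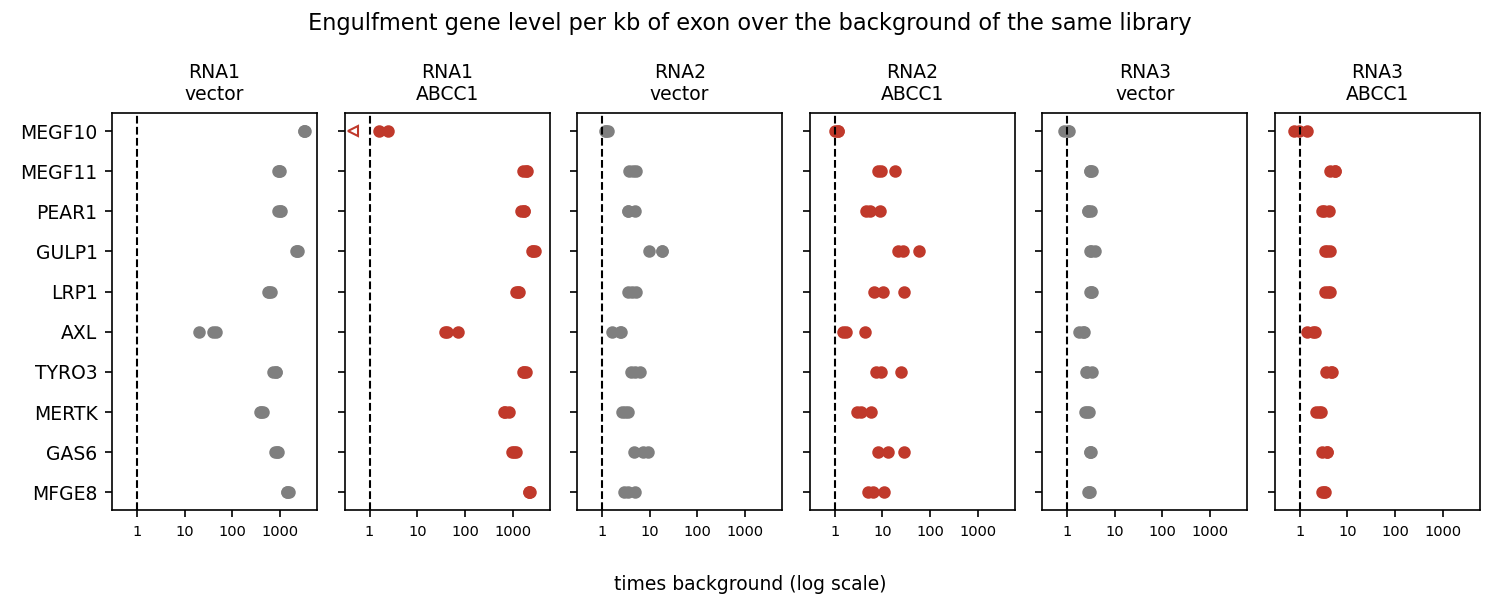
Level per kilobase of exon of each engulfment gene divided by the olfactory receptor background of the same library, on a log scale, for the 3 libraries of each group; the dashed line marks 1, and the open triangle marks 0 counts. All genes but MEGF10 lie right of the line in all groups, and in RNA2 and RNA3 MEGF10 sits on it.

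The wider engulfment pathway was described with 73 other genes, of which 56 passed the filter in RNA1. In RNA1, 14 rose and 12 fell, where 17.9% of all tested features were called higher and 19.7% lower. Over the repeats, 10 rose and 3 fell of 73, where 7.17% of all features were called higher and 3.74% lower. The median log2FC was 0.06 beside -0.19 over all features. With 1.7% of all features called in RNA2 and 2.8% in RNA3, RNA2 alone gave 1 each way (CRKL higher, CD36 lower) and RNA3 alone 2 higher (PANX1 and LGALS3) and 1 lower (ITGB5). The 10 that rose over the repeats included 6 of 23 genes of the downstream machinery: the CED-2-like adaptors CRKL (log2FC 0.67, edgeR adjusted P = 0.00104) and CRK (0.49, adjusted P = 0.00864), the GTPases RHOG (0.61, adjusted P = 0.0306) and ARF6 (0.52, adjusted P = 0.00913), and TRIO and PTK2. CRKL, ARF6 and RHOG were not called in RNA1 (log2FC 0.06, 0.10 and 0.14), whereas CRK was (0.16, adjusted P = 0.0108). Of the same 23 machinery genes, 3 were called higher and 6 lower in RNA1. Among features with at least 10 counts in every repeat library, 2422 of 21289 were called higher over the repeats. Whether the machinery genes exceeded such a share was not tested.

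PANX1, a channel that releases find-me nucleotides from dying cells, rose in both settings, by 0.29 in RNA1 (edgeR adjusted P = 0.000248) and 0.63 over the repeats (adjusted P = 0.000526). LRP8, an apolipoprotein E receptor, rose by 0.61 in RNA1 (adjusted P = 8.2e-06) and 0.55 over the repeats (adjusted P = 0.00173), and TUB, a proposed MERTK ligand, by 0.28 (adjusted P = 0.00179) and 0.53 (adjusted P = 0.00513). ITGB5, the beta 5 integrin that MFGE8 binds, fell by 0.48 in RNA1 (log2FC -0.48, adjusted P = 4.36e-05) and by 0.52 over the repeats (adjusted P = 0.0174). CD36, a scavenger receptor, fell by 0.94 in RNA1 (adjusted P = 0.00285) and by 0.97 over the repeats (adjusted P = 0.0041). Its repeat reads lay near or below the background, at 1.02 times in the RNA2 controls and 0.705 times in the RNA2 ABCC1-overexpressing cells, and at 0.541 and 0.466 times in those of RNA3. The background was also lower in ABCC1-overexpressing cells, and with it as a covariate the CD36 log2FC was -0.70 (adjusted P = 0.303). RHOG lost its call without any of 5 of the 12 repeat libraries (replicate 3 of the RNA2 controls, 1 and 3 of the RNA3 controls, 2 and 3 of the RNA3 ABCC1-overexpressing cells; adjusted P 0.0559 to 0.109). ITGB5 lost its call without replicate 2 of the RNA2 ABCC1-overexpressing cells, replicate 2 of the RNA3 controls or replicate 3 of the RNA3 ABCC1-overexpressing cells (adjusted P 0.0517 to 0.0753), and also with DESeq2 or with RLE factors (log2FC -0.39 with either, adjusted P of at most 0.0973). With the background as a covariate, ITGB5 alone of the 13 was called (log2FC -0.79, adjusted P = 0.0263), beside 0.753% of all features. The log2FC of PANX1 was then 0.55 (adjusted P = 0.0745), against 0.63 without the covariate. Those of CRKL, ARF6 and CRK were 0.35, 0.22 and 0.29, smaller by over 1.5 times.

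Among the pathway genes called in RNA1, 3 had a log2FC of at least 1 in size, all of them higher in ABCC1-overexpressing cells. ITGB3, the beta 3 integrin, rose by 1.10 (edgeR adjusted P = 0.0029), from 27, 18 and 17 counts to 85, 46 and 59. That call was lost in 1 of 12 alternatives. ATP8A2, a flippase that keeps phosphatidylserine on the inner leaflet, rose by 1.07 (adjusted P = 1.87e-06), and CX3CL1, the find-me signal fractalkine, by 1.02 (adjusted P = 1.08e-05). Over the repeats none of these was called, with a log2FC of -0.09 for ITGB3, 0.09 for ATP8A2 and 0.36 for CX3CL1. In the RNA2 and RNA3 controls ITGB3 lay at 0.479 and 0.319 times the background, CX3CL1 at 2.06 and 1.23 times, and ATP8A2 at 3.11 and 1.95 times. The difference between the first experiment and the repeats passed for ATP8A2 (1.07, adjusted P = 6.66e-05) and not for ITGB3 (adjusted P = 0.361) or CX3CL1 (adjusted P = 0.113). Markers of other cell types were mostly low. The fibroblast markers LUM and PDGFRB stood above 3 times the background in every group. In RNA2 and RNA3 none of the glial or endothelial markers lay above 3 times the background, CSF1R was the only macrophage marker that did (in the RNA2 ABCC1-overexpressing group), and TYROBP was at 0 in RNA1.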

How the data were processed

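Gene counts of 18 libraries were used, 1 table per library. The authors demultiplexed reads with bcl2fastq 2.18, aligned them with STAR 2.7.3a to GRCh37 with vector sequences added, and deposited raw counts of read pairs per gene from featureCounts (Subread 2.0.0) on Ensembl exons, with no strand option stated. The labels of RNA1 name both the TruSeq kit and the SMARTer kit that RNA2 and RNA3 carry, and the study's methods give TruSeq for the first experiment, so the kit of RNA1 is in doubt. Here the counts were tested with edgeR 4.0.16 (R 4.3.3): genes below filterByExpr's minimum count of 10 were dropped, libraries were scaled by TMM, and ABCC1-overexpressing cells were compared with empty vector control cells within each experiment by a two-sided robust quasi-likelihood F-test; p-values were adjusted over all features tested (Benjamini-Hochberg) and called at 0.05. The common effect of RNA2 and RNA3 and their difference came from a 12-library fit, and the difference between the first experiment and the repeats from an 18-library fit. DESeq2 1.42.0, RLE factors, other filters, a replicate block and leaving out each library were tried as alternatives. CPM were TMM-scaled within an experiment, so that levels are compared within experiments, and per-kilobase values divide them by the exon length of the count tables. A pseudocount of 0.1 CPM was used for the pattern search. The study's methods describe cells plated every week and assayed together after 3 weeks, but the labels tie no library or replicate number to a week, so p-values measure the spread between these libraries. The fits were tested on simulated counts with 200 changed genes. Of 100 genes changed 2-fold, 97% were recovered in RNA1, 46% in RNA2, 40% in RNA3 and 56% over the repeats. For the differences, 13% were recovered between the third and second experiments and 45% between the first and the repeats. A gene that was not called may therefore still differ.

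The genes and the lists were chosen with earlier results of these data known. Named besides the 10 members were the engulfment genes called over the repeats, or called in RNA1 with a log2FC of at least 1 in size, up to 12 by size; the 3 nearest tested genes on each side of MEGF10; and the 5 genes with the most similar pattern. LGALS3, TRIO and PTK2, ABCA1, CD200 and the markers were named after their values were seen. Of 124 listed symbols, 122 were matched; CD24 and PECAM1 are not used here. Sequences are from RefSeq on GRCh38.p14, and gene positions are on GRCh37.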

Additional observations from a re-analysis of the deposited data

Results flagged for a closer look

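Genes of the engulfment set whose difference between ABCC1-overexpressing and empty vector control cells was not the same in the first experiment and in the repeats, by the test of that difference in the 18-library fit (edgeR), are given here. By the study's methods, kit, instrument and cells changed with the experiment and cannot be told apart, and the labels leave the kit of RNA1 in doubt. In the same fit the 330 olfactory receptor genes tested, which stand for the read background, had a median difference of 0.62. For MERTK the difference was 0.84 (log2FC 0.26 in the first experiment and -0.48 over the repeats, adjusted P = 0.0361), higher in 3 of 3 ABCC1-overexpressing libraries of RNA1 and lower in all 6 of the repeats, where it lay at 2.53 to 3.66 times the background by group. That call was lost without any of 10 of the 18 libraries (adjusted P 0.0584 to 0.185), namely all 6 of RNA1, replicates 2 and 3 of the RNA3 controls and replicates 1 and 3 of its ABCC1-overexpressing cells, and with the replicate block (adjusted P = 0.069). ABCA1, a cholesterol exporter related to the engulfment protein CED-7 of worms, differed by 1.07 (0.72 in the first experiment, -0.25 over the repeats, adjusted P = 0.00777). Its repeat reads were near the background, at 1.32 times in the RNA2 controls and 1.45 times in the RNA3 controls. ATP8A2 differed by 1.07 (1.07 and 0.09, adjusted P = 6.66e-05). CD200, a membrane protein that restrains phagocytes, differed by -0.78 (-0.95 and -0.07, adjusted P = 0.0119). Leaving out 1 library ended the call for ABCA1 in 2 of 18 cases, replicate 3 of the RNA1 controls and replicate 1 of its ABCC1-overexpressing cells (adjusted P 0.0521 to 0.0643), and for CD200 in 3 of 18, replicates 1 and 2 of the RNA1 controls and replicate 2 of its ABCC1-overexpressing cells (adjusted P 0.0562 to 0.0651), and in none for ATP8A2.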

How the results depend on the processing

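Calls depended on the settings, and causes were not tested. Of the 9 members tested in the first experiment, 6 were called, and 3 when the spread was shared across all 18 libraries (GULP1, MERTK and GAS6 were lost), and other engulfment genes went from 26 to 7 there. In the second experiment, DESeq2 called 2 members and the shared spread 4, against 0; other engulfment genes went from 2 to 13 with DESeq2, 4 with no filter, 0 with the background covariate and 14 with the shared spread. In the third experiment, DESeq2 called 1 member against 0, and other engulfment genes went from 3 to 6 with DESeq2, 6 with 10 counts in every library and 6 with the shared spread. In the common effect of the repeats, members went from 4 to 2 with RLE factors and 0 with the background covariate, and other engulfment genes from 13 to 20 with DESeq2 and 1 with the covariate. Over all features, calls in RNA1 went from 6382 to 1528 with the shared spread. In RNA2 they went from 581 to 2849 with DESeq2, 1402 with no filter, 1086 with RLE factors, 4924 with the shared spread and 9 with the covariate, and from 8 to 1359 with 1 library left out. In RNA3 they went from 1021 to 1597 with DESeq2 and 1725 with 10 counts in every library, and from 394 to 2762 with 1 library left out. Over the repeats they went from 4523 to 312 with the covariate, and from 2260 to 7011 with 1 library left out. The balance of directions among all features moved as well. In RNA2, 425 were higher and 156 lower, against 350 and 438 with 10 counts in every library, 593 and 766 without replicate 3 of the ABCC1-overexpressing cells, 2106 and 2818 with the shared spread and 2488 and 361 with DESeq2. In RNA3, 741 were higher and 280 lower, against 181 and 571 with the covariate, 1311 and 107 with the shared spread and 1454 and 143 with DESeq2. Over the repeats, 2971 were higher and 1552 lower, against 2422 and 2741 with 10 counts in every library, 3283 and 3728 without that RNA2 library and 5129 and 1288 with DESeq2. The difference between the first experiment and the repeats called 1 member, and 2 with DESeq2 or with 10 counts in every library.

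The replicate numbers did not pair the libraries: correlations of same-numbered libraries ran from -0.138 to 0.0974. With the replicate block, members called went from 6 to 4 in the first experiment, where MERTK (adjusted P = 0.0647) and GAS6 (adjusted P = 0.0658) were lost, and from 4 to 3 over the repeats, where MERTK (adjusted P = 0.0526) was lost, as was RHOG among the other engulfment genes (adjusted P = 0.0556). Further, 1 member (AXL) was called in the third experiment, 0 between the first experiment and the repeats, 1 other engulfment gene in the second experiment and 6 in the third; the number of all features called in RNA3 went from 1021 to 1885.

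With 1 library left out, members called ranged from 4 to 6 in the first experiment, 0 to 1 in the second, 0 to 1 in the third, 1 to 4 in the common effect and 0 to 1 in the difference between first and repeats. Other engulfment genes ranged from 21 to 30, 0 to 5, 0 to 10, 7 to 19 and, for the difference between RNA3 and RNA2, 0 to 1.

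Members with an uncalled log2FC near 0 changed sign. GULP1 in the second experiment (0.025) went to -0.092 with 10 counts in every library and -0.0076 with the covariate, with -0.13 to 0.21 over left-out libraries; over the repeats (-0.028) it went to 0.0804 with DESeq2 and 0.0796 with RLE factors, and -0.13 to 0.081. LRP1 in RNA3 (-0.067) went to 0.0114 with DESeq2, 0.0136 with the covariate and 0.0155 with the shared spread, and -0.11 to 0.0038. AXL in RNA1 (-0.064) went to 0.0339 with the shared spread, and -0.44 to 0.21. GAS6 in RNA2 (0.019) went to -0.103 with 10 counts in every library and -0.195 with the covariate, and -0.091 to 0.142; over the repeats (-0.043) to 0.0746 with DESeq2 and 0.0738 with RLE factors, and -0.12 to 0.0078. MFGE8 in RNA2 (-0.126) went to 0.0074 with DESeq2 and 0.169 with the covariate, and -0.266 to 0.0042; over the repeats (-0.121) to 0.0509 with the covariate. AXL in RNA1 rests on 15 to 30 counts per library.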
